A study of Homo sapiens with 8 samples.

Results

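The genes of the mitochondrial ribosomal proteins were followed in HCT116 cells given the small molecule P2, with and without p53. Members were all array probes whose gene symbol begins with MRPL (large subunit) or MRPS (small subunit) followed by a number, with pseudogenes left out, and which were detected (detection p under 0.05) on at least 2 of 8 arrays. The array carried 102 probes with such a symbol, of which 3 belonged to pseudogenes and 3 were detected on fewer than 2 arrays, so that 96 probes of 75 genes were tested, out of 14574 tested probes (10932 genes) and 24526 probes in all. The large subunit had 64 of these probes (49 genes) and the small subunit 32 (26 genes). Of the 96 probes 94 were detected on all 8 arrays. Just inside the detection limit lay the MRPL44 probe, detected on 2 arrays. Just outside lay 1 MRPL4 probe, detected on 1 array with a lowest detection p of 0.0421, while a second MRPL39 probe and the only MRPS18C probe were detected on none.

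HCT116 is an established human colon cancer cell line, used here as a p53-/- line and as the p53+/+ line. There were 4 groups of 2 Illumina arrays each, namely P2-treated p53-/- cells, untreated p53-/- cells, P2-treated p53+/+ cells and untreated p53+/+ cells. The series design gives a P2 dose of 25 µM. The sources used here name no solvent given to the untreated cells and no treatment time, do not say whether the p53-/- line is 1 clone, and speak of frozen tissue for the RNA extraction although every sample is labelled as this cell line. Nor is it stated that paired arrays came from separate cultures, so p-values measure the spread between arrays, which may be technical.

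Mitochondria keep a small genome whose messenger RNAs encode core subunits of the respiratory chain and ATP synthase, and a dedicated ribosome in the mitochondrial matrix translates them. All protein subunits of that ribosome are encoded in the nucleus, made in the cytosol and imported, while its ribosomal RNAs come from the mitochondrial genome. Some subunits have counterparts in the bacterial ribosome and others are found only in mitochondria. The genes are active in every tissue with mitochondria, the colon epithelium included, and regulators of the ETS family (GABP) and NRF1 are known to act on many promoters of this class.

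P2 raised a minority of these genes in p53-/- cells, a share like that of all genes on the array. In p53-/- cells 11 of 96 probes (10 genes) were higher with P2 and 0 were lower at an adjusted p under 0.05 in limma, a linear model with moderated variances fitted to all 14574 probes. Over all probes 11.8% were higher and 13.6% lower, so the share of members that rose, 11.5%, was close to the background. The count of 0 lower became 1 to 3 in some settings with all 8 arrays, against 12.9% to 19.1% of all probes lower in those settings. Some alternative analyses of all 8 arrays called members lower, namely MRPL35 and MRPS24 with no background correction, with the authors' log2 values or with the stricter detection filter, these and MRPL44 with a trend in the variance and robust moderation, and MRPL44 with the replicate block. At an unadjusted p under 0.05 there were 23 members higher and 3 lower, against 17.3% and 21.7% of all probes. The 3 were single probes of MRPL35 at -0.41 log2, of MRPS24 at -0.33 and of MRPL44, which was not above background in treated p53-/- cells. With p53 present 3 probes were higher and 1 lower, against 5.71% and 6.29% of all probes, or 11 and 4 at an unadjusted p under 0.05, against 13.1% and 14.9%. With cyclic loess in place of quantile normalization 15 members rose in p53-/- cells and 0 fell, against 13.7% and 10.0% of all probes. No member passed the test for a difference in response between the genotypes or for a difference between the genotypes themselves.

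Most members moved little. For 61 of 96 probes the P2 effect lay within 0.3 log2 of 0 in both genotypes, 3 probes exceeded 1 log2 in p53-/- cells and 0 did so in p53+/+ cells. The median P2 effect in p53-/- cells was 0.12 log2 over the members, 0.11 for the large and 0.13 for the small subunit, against -0.042 over all probes. In p53+/+ cells the medians were 0.073 for the large and 0.0056 for the small subunit, against -0.0054 over all probes. Leaving out a single array could turn the sign of both p53+/+ medians, but of neither p53-/- median. Scaling to a common median turned all of them but that of the large subunit in p53-/- cells. Without untreated p53+/+ replicate 1 the p53+/+ medians were -0.023 for the large and -0.022 for the small subunit, and without replicate 2 they were 0.17 and 0.049. Without P2-treated p53+/+ replicate 1 the small subunit stood at -0.014. The p53-/- medians without untreated p53-/- replicate 1 were 0.088 for the large and 0.081 for the small subunit. With the arrays scaled to a common median, the median of all probes was -0.12 in p53-/- and -0.11 in p53+/+ cells. The large subunit then stood at 0.023 and the small at -0.0048 in p53-/- cells, and at -0.10 and -0.16 in p53+/+ cells. That scaling left 6 member calls in p53-/- cells, all higher, against 8.32% higher and 9.15% lower over all probes. In these bulk RNA samples fewer cells and less RNA per cell cannot be told apart.

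**Figure D1:**
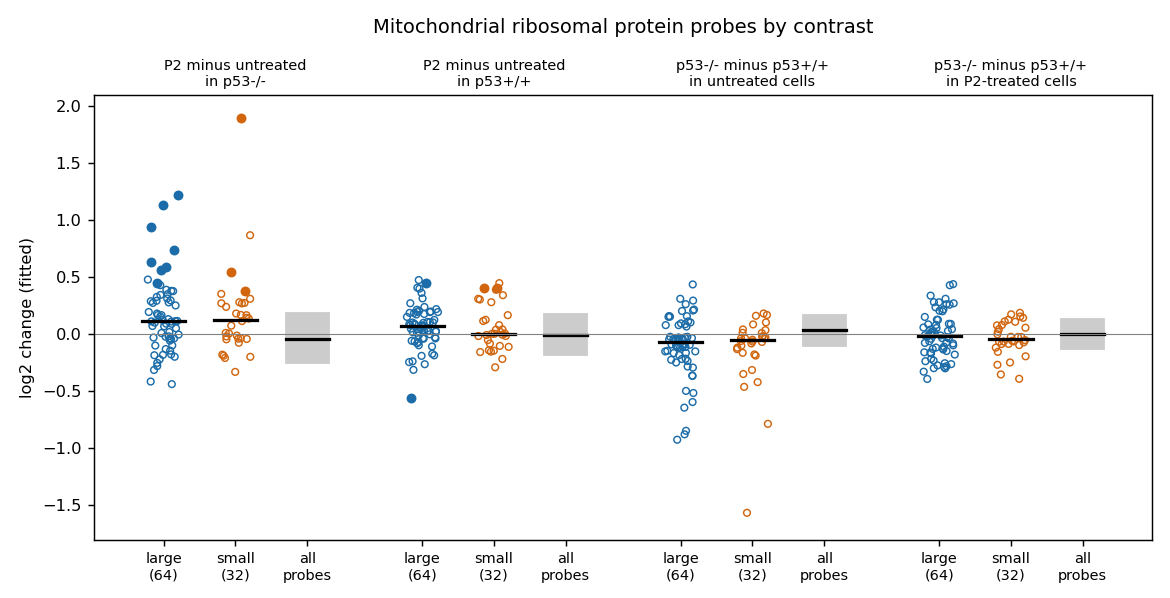
Fitted log2 change of each member probe in 4 comparisons, with large subunit probes in blue and small subunit probes in orange, filled where the adjusted p was under 0.05, and black bars at the medians. Grey boxes span the middle 50% of all 14574 tested probes. The filled points lie above 0 in p53-/- cells (11 of 11), 1 of the 4 in p53+/+ cells lies below 0, and there is none in either comparison of the genotypes.

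Array by array, the member medians of treated and untreated p53-/- cells were apart and those of p53+/+ cells were not. Taking each probe relative to its own mean over the 8 arrays, the member median was 0.025 and 0.034 log2 on the P2-treated p53-/- arrays, against -0.10 and -0.052 on the untreated p53-/- arrays. It was 0.048 and 0.054 on the P2-treated p53+/+ arrays, against -0.076 and 0.081 on the untreated p53+/+ arrays. Only 1 untreated p53+/+ array, replicate 2, lay above both treated arrays of its genotype. Over all probes the p53-/- medians were -0.020 and -0.0005 with P2, against 0.053 and 0.010 without. Those of p53+/+ cells were -0.014 and -0.0087, against 0.0002 and 0.0009. Cytosolic ribosomal protein probes resembled the members. They stood at -0.035 and 0.053, against -0.13 and -0.050, in p53-/- cells and at 0.043 and 0.095, against -0.040 and 0.071, in p53+/+ cells. Probe by probe, both treated p53-/- arrays exceeded both untreated ones for 40 members (41.7%) and lay below them for 17 (17.7%), against 27.9% and 36.2% of all probes. In p53+/+ cells the counts were 23 (24.0%) and 14 (14.6%), against 28.3% and 31.0%.

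One array bears on every value that follows for p53-/- cells. Replicate 1 of the untreated p53-/- cells correlated with its partner at r = 0.989, against 0.995 in each of the other groups, and 215 of all probes were at least 1 log2 lower on it than on replicate 2, while 0 were higher by as much. Among the members 7 of 96 (7.29%) were at least 0.5 log2 lower on it, against 5.26% of all probes, and 5 of the 11 probes called in p53-/- cells were among them. Elsewhere 0, 0 and 1 member per group were as much lower on replicate 1. The share of probes detected was 52.1% on it and 54.3% to 57.1% on the other arrays. The median level over a list of 11 colon epithelium markers was 6.92 to 7.02 log2 in P2-treated p53-/- cells, against 4.70 to 6.09 in untreated p53-/- cells, the lowest of the groups, while the p53+/+ arrays lay at 6.99 to 7.36. Of those markers EPCAM, CDH1, KRT8, KRT19 and CDX2 were detected on all 8 arrays and KRT20, VIL1, CDX1, CDH17 and LGALS4 on none, so this median turns on the 2 probes of the keratin gene KRT18. The first of them read 7.28 and 7.01 log2 on the P2-treated p53-/- arrays, against 4.49 and 6.51 on the untreated p53-/- arrays. The mean over the 5 markers detected on all 8 arrays was 10.25 and 10.19 in P2-treated p53-/- cells, against 9.92 and 9.97 in untreated ones, and 10.26 and 10.25 in P2-treated p53+/+ cells, against 10.02 and 10.02 in untreated ones. For fibroblast, leukocyte and endothelial markers the array medians were 4.44 to 4.70, near the median of undetected probes (4.49), although COL1A1, CD68, LYZ and PECAM1 were detected on all 8. The part of this array and of these marker levels in the member values was not tested beyond leaving the array out.

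MRPS34, a mitochondria-specific protein needed for a stable small subunit, had the largest P2 effect of the 96 probes. Its level was 8.61 and 8.46 log2 on the P2-treated p53-/- arrays, against 5.74 and 7.53 on the untreated ones. Cells with p53 had 8.63 and 8.39 with P2 and 8.24 and 8.17 without. Treated arrays were above untreated ones in both genotypes, and the untreated p53-/- arrays were the lowest of all and far from each other. The gene rose in p53-/- cells by 1.90 ± 0.43 log2 (SE; 3.72-fold, adjusted p = 0.0137). Without untreated p53-/- replicate 1 the rise was 0.99 ± 0.15 log2 (adjusted p = 0.00219). The p53+/+ change was 0.31 ± 0.43 log2 (adjusted p = 0.694).

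MRPL20, the counterpart of bacterial L20, a protein that binds the large ribosomal RNA early in assembly, was the member with the smallest adjusted p. MRPL20 stood at 9.27 and 9.35 log2 on the P2-treated p53-/- arrays, against 7.70 and 8.49 on the untreated ones. On p53+/+ arrays it stood at 9.52 and 9.47 with P2, against 8.92 and 9.12 without. The groups did not overlap in either genotype. The rise in p53-/- cells was 1.22 ± 0.22 log2 (2.33-fold, adjusted p = 0.00452), and 0.82 ± 0.14 (adjusted p = 0.00445) without the divergent array. Its call held in 19 of 19 alternative analyses, which no other called member matched. In every such tally the fits with no background correction and with the authors' log2 values count separately but used the same values. A further alternative was chosen after seeing the data. Its p53+/+ change was 0.47 ± 0.22 log2 (adjusted p = 0.188).

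MRPL12 forms the flexible stalk that recruits translation factors to the large subunit, as bacterial L7/L12 does. Its levels were 11.18 and 10.87 log2 on the P2-treated p53-/- arrays, against 9.44 and 10.34 on the untreated ones. The p53+/+ arrays gave 10.98 and 10.89 with P2, against 10.80 and 10.67 without, again with no overlap. MRPL12 rose by 1.14 ± 0.24 log2 in p53-/- cells (2.20-fold, adjusted p = 0.0107), and by 0.69 ± 0.16 (adjusted p = 0.0181) without the divergent array. Its p53+/+ change was 0.20 ± 0.24 (adjusted p = 0.647). MRPL10, which anchors this stalk, had probes at 0.38 (adjusted p = 0.0505) and -0.10 log2 in p53-/- cells, and MRPL11, a neighbour at the stalk base, had 3 probes between 0.093 and 0.29, none called.

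MRPL1, the counterpart of bacterial L1 on the mobile stalk where transfer RNA leaves, had similar levels on both untreated p53-/- arrays. Its levels were 9.78 and 9.71 log2 in P2-treated p53-/- cells, against 9.05 and 9.17 in untreated ones. The p53+/+ levels were 9.55 and 9.47 with P2, against 9.37 and 9.58 without. The p53-/- groups were apart and the p53+/+ groups overlapped. MRPL1 rose by 0.64 ± 0.12 log2 (1.55-fold, adjusted p = 0.00508) in p53-/- cells, by 0.58 ± 0.14 (adjusted p = 0.0241) without the divergent array, and changed by 0.036 ± 0.12 (adjusted p = 0.878) in p53+/+ cells. The p53-/- call was lost with median scaling (adjusted p = 0.0894).

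Around the tunnel through which the new protein leaves, the members behaved unevenly. MRPL45, which docks the ribosome to the inner membrane beside the tunnel exit, rose on 1 of its 2 probes. That probe stood at 10.09 and 10.09 log2 in P2-treated p53-/- cells, against 8.76 and 9.54 in untreated ones, a rise of 0.94 ± 0.21 (adjusted p = 0.0125), or 0.55 ± 0.14 (adjusted p = 0.0241) without the divergent array. The second probe gave 10.36 and 10.47 with P2, against 10.18 and 10.14 without, a change of 0.25 ± 0.10 (adjusted p = 0.106) with the groups also apart. Both probes are annotated to the same transcript. MRPL23, the counterpart of bacterial L23 at the exit, stood at 10.66 and 10.49 log2 with P2, against 9.93 and 10.32 without, and rose by 0.45 ± 0.14 (adjusted p = 0.0448). MRPL24 had a probe at 0.48 (adjusted p = 0.0539), which was among those low on the divergent array, and another at -0.0029. MRPL47, the counterpart of bacterial L29, was not called in p53-/- cells, with probes at 0.43 and -0.18.

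The other large subunit genes called in p53-/- cells were MRPL43 and MRPL30. MRPL43, a mitochondria-specific protein, had 3 probes. The first read 8.91 and 8.70 log2 with P2, against 7.73 and 8.39 without, and rose by 0.74 ± 0.19 (adjusted p = 0.0216). The second rose by 0.56 ± 0.16 (adjusted p = 0.0336). The third, annotated to a different transcript and read between 5.12 and 5.43 on all 8 arrays, changed by 0.019 ± 0.12 (adjusted p = 0.927). Without the divergent array the first stood at 0.41 (adjusted p = 0.0878) and the second at 0.36 (adjusted p = 0.173). MRPL30, the counterpart of bacterial L30, stood at 7.45 and 7.21 with P2, against 6.84 and 6.64 without, a rise of 0.59 ± 0.15 (adjusted p = 0.0225) that was 0.67 ± 0.18 (adjusted p = 0.0308) without the divergent array and was lost with median scaling.

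In the small subunit group by symbol, MRPS18A and MRPS16 rose beside MRPS34. MRPS18A is 1 of 3 human homologues of bacterial S18 and sits in the large subunit in spite of its name. By position, 9 of 66 large (13.6%) and 2 of 30 small subunit probes (6.67%) were therefore called, against 11.8% of all probes. MRPS18A read 7.70 and 8.02 log2 in P2-treated p53-/- cells, against 7.18 and 7.44 in untreated ones. It rose by 0.55 ± 0.14 (adjusted p = 0.0225), and its change in p53+/+ cells was 0.45 ± 0.14 (adjusted p = 0.0757). The difference between these effects was 0.10 ± 0.20 (adjusted p = 0.857). MRPS16, a core small subunit protein shared with bacteria, read 8.02 and 8.21 with P2, against 7.62 and 7.85 without, and rose by 0.38 ± 0.12 (adjusted p = 0.0479). MRPS16 and MRPL23 were the most fragile calls, each kept in 7 of 19 alternatives, and MRPS18A, MRPS16 and MRPL23 were all lost with median scaling. They were also lost without the divergent array, at 0.41 (adjusted p = 0.114), 0.26 (adjusted p = 0.241) and 0.26 log2 (adjusted p = 0.249).

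**Figure D2:**
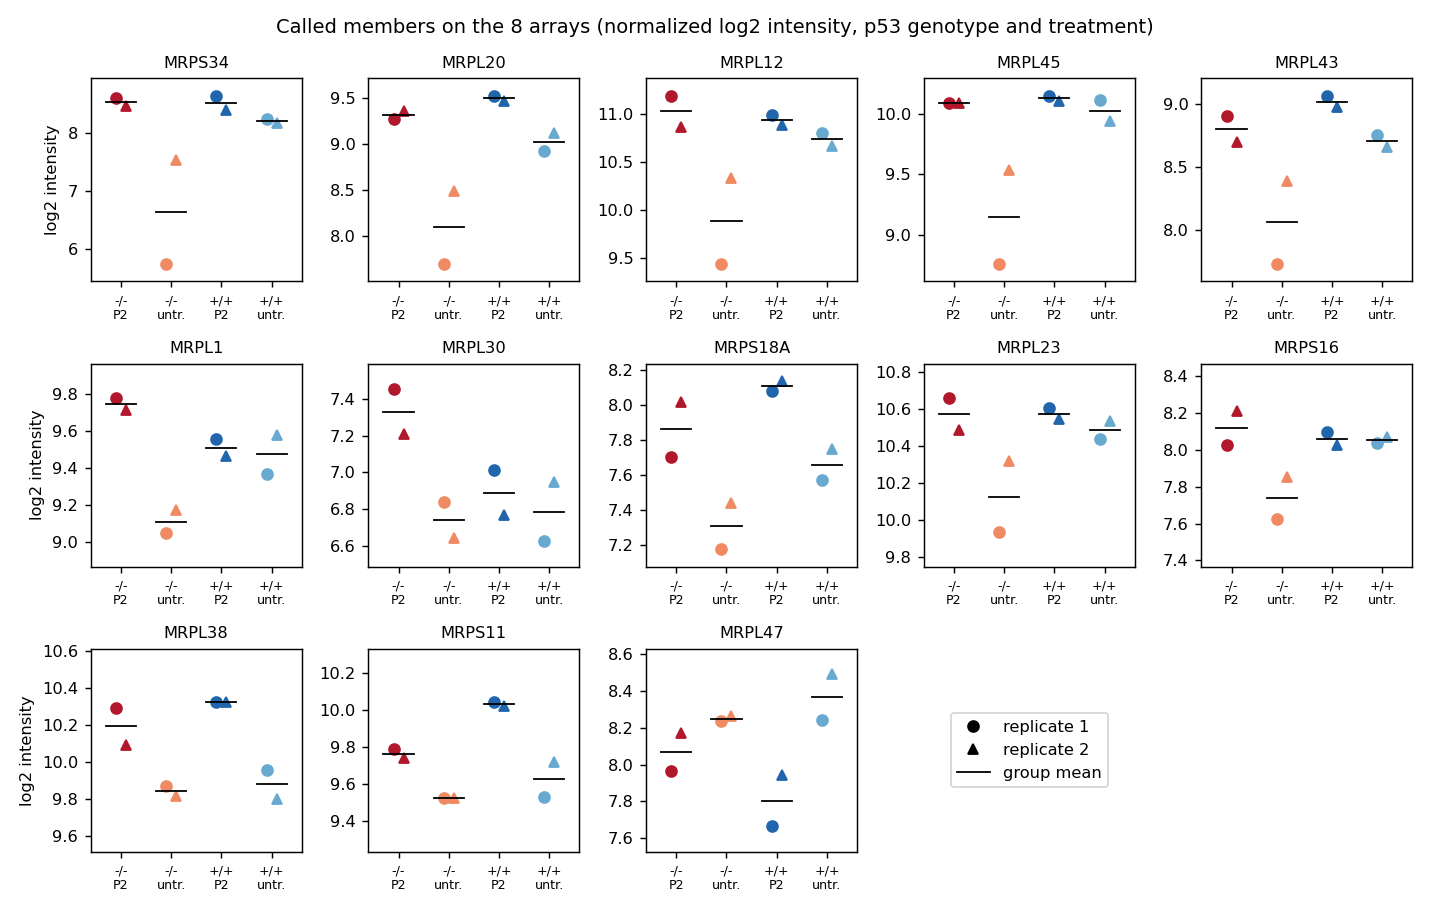
Normalized log2 intensity of 13 called genes on all 8 arrays, with 1 panel for each gene and a separate scale in each (first called probe of MRPL43 and MRPS11). Columns are P2-treated and untreated (untr.) p53-/- cells, then P2-treated and untreated p53+/+ cells; circles are replicate 1, triangles replicate 2 and lines group means. Untreated p53-/- replicate 1 is the lowest point in 10 of the 13 panels, all but MRPL30, MRPL38 and MRPL47, and MRPL47 falls with P2 in p53+/+ cells.

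Leaving out the divergent array gave a smaller P2 effect for 10 of the 11 called probes, all but MRPL30. There were then 8 members called, 7 higher and 1 lower, against 7.75% higher and 7.20% lower over all probes, and 6 of the 8 were among the 11 called with all arrays. MRPS34, MRPL20, MRPL12, MRPL45, MRPL30 and MRPL1 were kept. An MRPL10 probe at 0.51 ± 0.14 log2 (adjusted p = 0.0344) was added. MRPL44, a large subunit protein with an RNase III-like fold, was called lower (adjusted p = 0.0449). Its probe was detected on neither P2-treated p53-/- array and on 1 untreated one, so the size of the difference is not given. Leaving out a treated array also ended calls. Without P2-treated p53-/- replicate 1 the calls of MRPS34 (adjusted p = 0.0849), MRPL12 (0.0842), MRPL45 (0.0710) and MRPL30 (0.146) were lost, and without P2-treated p53-/- replicate 2 those of MRPS34 (0.0605), MRPL45 (0.0611) and MRPS18A (0.136), by limma with the lone sample assumed to vary as the other groups do. MRPL30 was also lost without untreated p53-/- replicate 2 (0.0734), and the first MRPL43 probe without P2-treated replicate 1 (0.130) or 2 (0.0566). MRPS12, a decoding-site protein, had a probe at 0.87 ± 0.29 (adjusted p = 0.0564) with all arrays and 0.36 without this one.

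**Figure D3:**
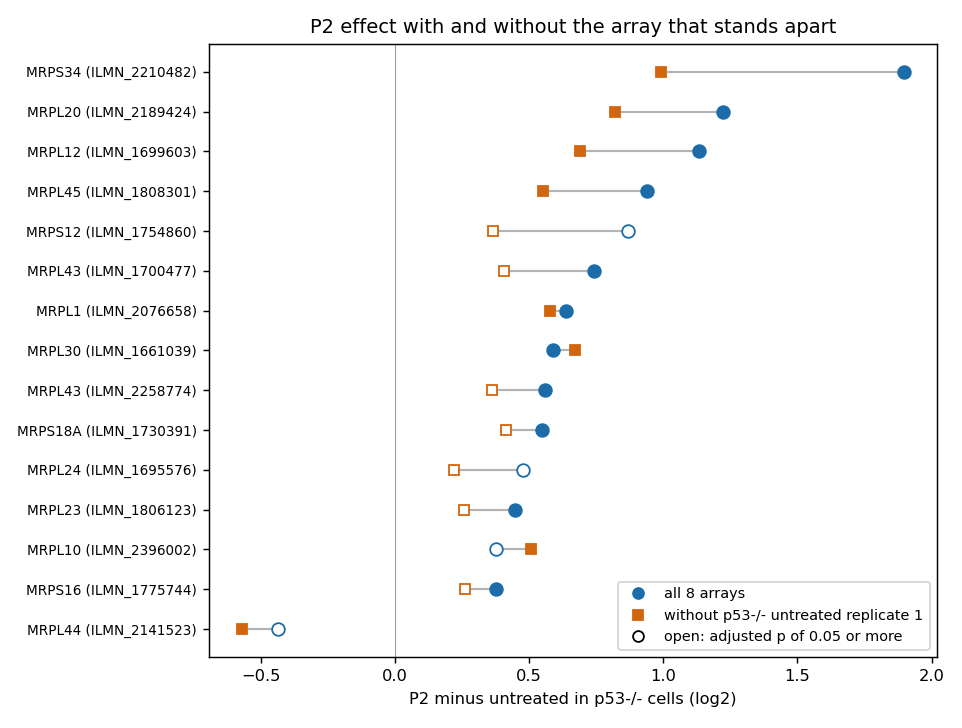
P2 minus untreated in p53-/- cells (log2) for 15 member probes with all 8 arrays (blue circles) and without untreated p53-/- replicate 1 (orange squares), open where the adjusted p was 0.05 or more. MRPS34 moves the furthest, to 0.99 without the array against 1.90 with it, while MRPL1 and MRPL30 stay close to their values.

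The 4 calls in p53+/+ cells were on MRPL38, MRPS11 and MRPL47. MRPL38, a mitochondria-specific large subunit protein, read 10.32 and 10.33 log2 with P2, against 9.96 and 9.80 without, and rose by 0.44 ± 0.12 (1.36-fold, adjusted p = 0.0372). MRPS11, the counterpart of bacterial S11 on the small subunit platform, rose on both of its probes. The first read 10.04 and 10.02 with P2, against 9.53 and 9.72 without (0.41 ± 0.11, adjusted p = 0.0400), and the second 9.08 and 9.02, against 8.72 and 8.58 (0.40 ± 0.11, adjusted p = 0.0476). Treated and untreated arrays did not overlap for any of these probes. The same probes in p53-/- cells gave 0.35 for MRPL38 and 0.24 and 0.14 for MRPS11, none called.

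MRPL47 fell in p53+/+ cells on 1 of 2 probes annotated to different transcripts. That probe read 7.67 and 7.94 log2 in P2-treated p53+/+ cells, against 8.24 and 8.49 in untreated ones, and fell by 0.56 ± 0.14 (1.48-fold, adjusted p = 0.0328). The other probe read 7.58 and 7.87 with P2, against 7.33 and 7.75 without (0.19 ± 0.16, adjusted p = 0.495). All 4 p53+/+ calls were lost when any 1 of the 4 p53+/+ arrays was left out, with adjusted p of 0.0549 to 0.225. With median scaling MRPL47 alone was called, beside 2.03% of all probes higher and 4.92% lower.

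**Figure D4:**
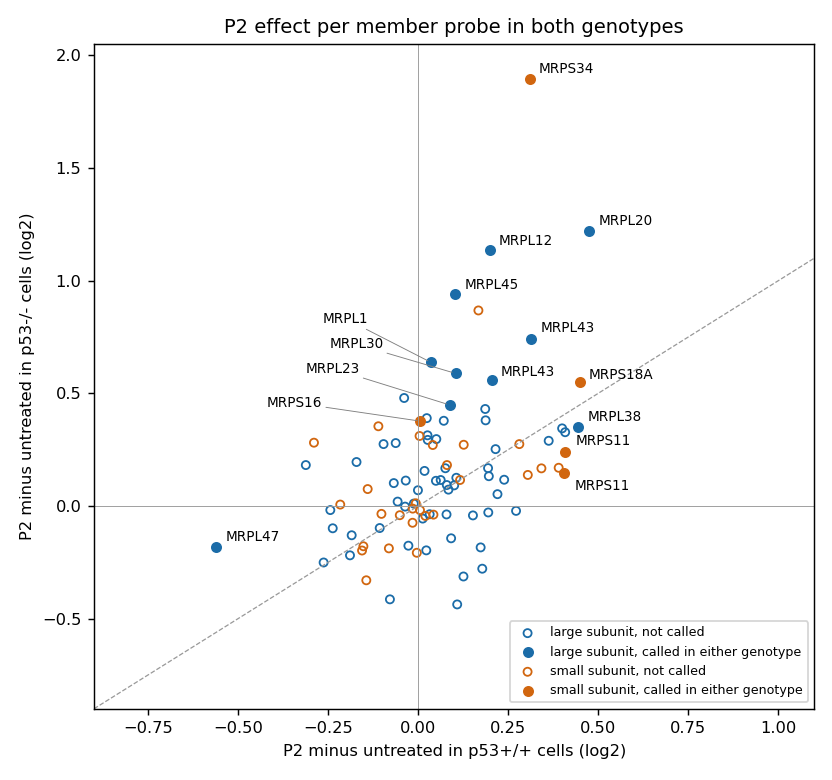
P2 effect (log2) in p53-/- cells, vertical, against that in p53+/+ cells, horizontal, for each of 96 member probes, with large subunit probes in blue and small subunit probes in orange, filled and named where called in either genotype; the dashed line marks equal effects. The 11 probes called in p53-/- cells lie right of 0 and above the line, with MRPS34 at 1.90 and 0.31. Being picked by their p53-/- effect favours a place above the line.

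Set side by side, the 11 probes called in p53-/- cells were all positive and smaller in p53+/+ cells, where none was called. They were picked by their effect in p53-/- cells, and that choice alone favours a smaller effect in p53+/+ cells. The difference in response was tested directly and limma called 0 of 96 members and 0% of all probes, with 8 members higher and 2 lower at an unadjusted p under 0.05, against 7.48% and 8.87% of all probes. The smallest adjusted p was that of MRPL1, whose effect was 0.60 ± 0.16 log2 larger in p53-/- cells (adjusted p = 0.140). MRPL45 followed at 0.84 ± 0.30 (adjusted p = 0.223) and MRPL12 at 0.94 ± 0.35 (adjusted p = 0.236). With median scaling MRPS34 passed (1.78, adjusted p = 0.00171), against 2.89% of all probes higher and 0.309% lower. Leaving out untreated p53-/- replicate 2 makes the divergent array the only untreated p53-/- sample. The difference in response was then 2.49 log2 for MRPS34, 1.38 for MRPL12, 1.23 for MRPL45 and 1.14 for MRPL20. For single probes of MRPS12, MRPL24 and MRPL43 it was 1.21, 0.78 and 0.75. These members were picked by that same fit.

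The comparison of untreated p53-/- with untreated p53+/+ cells shares its p53-/- arrays with the P2 comparison in that genotype. Limma called 0 members in it, against 0.0274% of all probes higher and 0.0412% lower, with 2 members higher and 15 lower at an unadjusted p under 0.05, against 10.1% and 9.76% of all probes. The median difference, p53-/- minus p53+/+, was -0.055 log2, against 0.039 over all probes. With median scaling the large subunit stood at -0.0066 and the small at 0.039, against 0.093 over all probes. Both p53-/- arrays lay below both p53+/+ arrays for 29 members (30.2%) and above for 11 (11.5%), against 20.5% and 29.7% of all probes.

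MRPL52, a mitochondria-specific large subunit protein, had the smallest adjusted p in that comparison. It read 7.99 and 8.14 log2 in untreated p53-/- cells, against 8.52 and 8.61 in untreated p53+/+ cells, with no overlap (-0.50 ± 0.11, adjusted p = 0.0727). MRPL20 differed by -0.92 ± 0.22 (adjusted p = 0.0768) and MRPL45 by -0.88 ± 0.21 (adjusted p = 0.0833). Without the divergent array these became -0.52 and -0.49. None of the 3 passed in the main fit. They passed in 6, 6 and 5 alternative analyses, most of which used all 8 arrays.

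P2-treated cells of both genotypes gave no call either. Limma called 0 members and 0% of all probes, with 5 members higher and 7 lower at an unadjusted p under 0.05, against 6.66% and 7.14% of all probes. The median difference, p53-/- minus p53+/+, was -0.024 log2, against 0.0057 over all probes, and with median scaling 0.11 for the large and 0.091 for the small subunit, against 0.090. MRPL42 read 9.12 and 9.21 log2 in p53-/- cells, against 8.68 and 8.79 in p53+/+ cells (0.43 ± 0.10, adjusted p = 0.175). A probe of MRPS11 differed by -0.39 ± 0.11 (adjusted p = 0.210) and MRPS26 by -0.35 ± 0.12 (adjusted p = 0.256). The 11 probes that P2 raised in p53-/- cells differed here by -0.25 (MRPS18A) to 0.44 log2 (MRPL30), with adjusted p of 0.266 to 0.996. MRPS34 stood at 0.022, MRPL12 at 0.091, MRPL20 at -0.18 and MRPL1 at 0.24 log2.

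Counts by subunit symbol and by evolutionary origin were close to each other, those by position less so, and their differences were not tested. By symbol P2 raised 8 of 64 large subunit probes (12.5%) and 3 of 32 small subunit probes (9.38%) in p53-/- cells, against 11.8% of all probes. By position it raised 9 of 66 large (13.6%) and 2 of 30 small subunit probes (6.67%). Among probes of proteins with a bacterial counterpart 6 of 59 rose (median 0.13 log2), and among those of mitochondria-specific proteins 4 of 35 (median 0.091). Counted in neither class were the S18 homologues MRPS18A, which was called, and MRPS18B. The p53+/+ counts for these classes were 2 higher and 1 lower, and 1 higher and 0 lower, against 5.71% and 6.29% of all probes. MRPS30, which, as MRPS18A does, sits in the large subunit, changed by -0.018 and 0.0050 log2 in p53-/- and p53+/+ cells, and the S18 homologue MRPS18B by -0.18 and -0.15, none of them called.

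Probes of the same gene often differed in their P2 effect, and these differences were not tested. For the 15 genes with several tested probes the median range of P2 effects between probes was 0.48 log2 in p53-/- cells and 0.14 in p53+/+ cells. Of the 15 genes 8 had probes of opposite sign in p53-/- cells, some through values near 0, as for MRPL24 (-0.0029 ± 0.14). In p53+/+ cells probes of MRPL10, MRPL47 and MRPS12, among others, also had opposite signs. The widest range in p53-/- cells was that of MRPS12, where 4 probes annotated to 3 transcripts spanned 1.08 log2, with the 2 brighter ones at -0.21 and -0.075. In p53+/+ cells the widest was that of MRPL47 (0.75). MRPS11 probes differed by 0.0035 in p53+/+ cells and 0.096 in p53-/- cells.

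Promoter sequences are shown because ETS and NRF1 motifs are known from promoters of this class. RefSeq promoters (GRCh38.p14) were matched for 67 of 75 member genes, and the 250 bases before the start site were searched on both strands. The ETS and GABP core CCGGAAG occurred in 22 of 67 (32.8%), in 14 of 42 large and 8 of 25 small subunit genes, against 11.8% of 15842 protein-coding promoters. The NRF1 motif occurred in 8 (11.9%, against 7.65%), the SP1 motif GGGCGG in 38 (56.7%, against 56.0%) and the YY1 motif AAGATGG in 7 (10.4%, against 3.35%). The E-box CACGTG was found in 5 (7.46%, against 7.84%) and TATAAA in 2 (2.99%, against 9.23%). Of the 9 called genes with a promoter, 5 held the ETS core (MRPL20, MRPL30, MRPL43, MRPS18A and MRPS34) and 2 the NRF1 motif (MRPL30 and MRPL45), and MRPL1, MRPL12 and MRPS16 held neither. The matches are descriptions of letters and not bound sites. The 4 promoters printed here were chosen among the called genes to show the ETS core repeated (MRPL20 and MRPS34), the ETS core with the NRF1 motif (MRPL30) and the NRF1 motif without the ETS core (MRPL45); capitals mark matches of the ETS, NRF1 and SP1 motifs on either strand, and each window is read 5′ to 3′ on the strand of its gene.
MRPL20, chr1:1407294-1407543, minus strand: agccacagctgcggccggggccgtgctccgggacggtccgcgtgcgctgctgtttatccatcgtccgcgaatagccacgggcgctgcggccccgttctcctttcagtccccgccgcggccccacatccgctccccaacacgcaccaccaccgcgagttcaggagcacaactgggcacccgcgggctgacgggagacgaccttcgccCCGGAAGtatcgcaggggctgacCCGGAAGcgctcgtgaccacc
MRPL30, chr2:99180934-99181183, plus strand: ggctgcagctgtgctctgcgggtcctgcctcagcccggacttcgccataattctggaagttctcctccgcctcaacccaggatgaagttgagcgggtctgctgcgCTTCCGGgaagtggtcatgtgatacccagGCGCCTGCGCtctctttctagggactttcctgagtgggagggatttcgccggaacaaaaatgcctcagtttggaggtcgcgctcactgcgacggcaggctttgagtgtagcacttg
MRPL45, chr17:38296918-38297167, plus strand: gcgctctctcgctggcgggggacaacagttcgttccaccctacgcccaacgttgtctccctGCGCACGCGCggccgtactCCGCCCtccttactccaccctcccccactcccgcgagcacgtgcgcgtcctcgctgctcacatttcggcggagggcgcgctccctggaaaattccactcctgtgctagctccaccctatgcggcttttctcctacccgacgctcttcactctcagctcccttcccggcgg
MRPS34, chr16:1773135-1773384, minus strand: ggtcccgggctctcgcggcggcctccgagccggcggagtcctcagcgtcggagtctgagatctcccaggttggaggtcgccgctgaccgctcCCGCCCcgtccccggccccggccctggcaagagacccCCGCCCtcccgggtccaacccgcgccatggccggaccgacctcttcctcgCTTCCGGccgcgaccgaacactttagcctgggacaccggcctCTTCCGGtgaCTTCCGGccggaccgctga
MRPL20 holds the ETS core at 2 places and MRPS34 at 3. MRPL27, MRPL51, MRPL58 and MRPS22, none of them called, also hold it at 2 places, and MRPL12 holds none of the 3 motifs in this window.

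Genes of the wider apparatus of mitochondrial gene expression were called in both directions. Their counts stand against 11.8% higher and 13.6% lower over all probes in p53-/- cells and 5.71% and 6.29% in p53+/+ cells, and no difference of a list from these shares was tested. The 4 ribosomal proteins whose symbols carry no MRPL or MRPS, namely DAP3, PTCD3, CHCHD1 and GADD45GIP1, were not called in either genotype. Of 14 probes of mitochondrial translation factors 2 rose and 4 fell in p53-/- cells, and 0 rose and 1 fell in p53+/+ cells. The elongation factor gene GFM1 fell in both, at -0.53 ± 0.12 log2 without p53 (adjusted p = 0.0116) and -0.56 ± 0.12 with p53 (adjusted p = 0.0169). The release factor gene MTRF1 fell by 0.69 ± 0.11 in p53-/- cells (adjusted p = 0.00354). There the initiation factor gene MTIF3 rose by 0.48 ± 0.12 (adjusted p = 0.0202) and the elongation factor gene TUFM by 0.35 ± 0.11 (adjusted p = 0.0429). The p53-/- calls of GFM1, MTIF3 and TUFM were lost without the divergent array.

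Of 24 probes for mitoribosome assembly and rRNA modification 2 rose and 1 fell in p53-/- cells and none was called in p53+/+ cells, where 3 had an unadjusted p under 0.05. In p53-/- cells the rRNA maturation factor gene YBEY rose by 0.63 ± 0.15 log2 on 1 of its 2 probes (adjusted p = 0.0139), and the other was not called. The methyltransferase gene MRM1 fell there by 0.63 ± 0.11 (adjusted p = 0.00484). RCC1L was called higher (adjusted p = 0.00603), but read 4.45 and 4.83 log2 in untreated p53-/- cells, near the median of undetected probes (4.49). Of 22 probes for mitochondrial transcription and messenger RNA handling 2 rose and 2 fell in p53-/- cells, and 0 rose and 2 fell in p53+/+ cells. LRPPRC, which stabilises mitochondrial messenger RNAs, fell in both genotypes, at -0.60 ± 0.10 without p53 (adjusted p = 0.00424) and -0.61 ± 0.10 with p53 (adjusted p = 0.00652). PNPT1, a mitochondrial exoribonuclease gene, rose by 0.77 ± 0.14 in p53-/- cells (adjusted p = 0.00480). Of 3 TBRG4 probes 1 was called higher there (adjusted p = 0.0279). That probe read 4.57 log2 on the divergent array, near undetected probes, and 6.28 on its partner.

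Of 14 mitochondrial aminoacyl-tRNA synthetase probes 0 rose and 2 fell in p53-/- cells, and 0 rose and 1 fell in p53+/+ cells, with HARS2 called in both (-0.47 ± 0.10, adjusted p = 0.00968, and -0.38 ± 0.10, adjusted p = 0.0401). Of 9 probes of nuclear regulators of mitochondrial genes 1 rose in p53-/- cells, that of SP1 (0.45 ± 0.10, adjusted p = 0.0144). Cytosolic ribosomal proteins gave 12 higher and 4 lower of 90 probes in p53-/- cells (median 0.088 log2) and 2 higher and 1 lower in p53+/+ cells (median 0.090). Their largest rise was on 1 of 2 RPL8 probes in p53-/- cells (2.40 ± 0.47, adjusted p = 0.00719). That probe read 9.85 and 9.58 with P2, against 6.35 on the divergent array and 8.29 on its partner. The 96 mitochondrial members in p53-/- cells had a median of 0.12 with 11 higher and 0 lower, and no test of the difference between these lists was made.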

How the data were processed

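Biotin-labelled cRNA was hybridised to Illumina bead arrays. The deposited table of non-normalized intensity values, with a detection p-value per probe, was the starting point; the submitters' processing notes name GenomeStudio. The deposited log2 values equal quantile-normalized log2 intensities without background correction (largest difference 5e-09). Here intensities were corrected by normexp (offset 16), put on the log2 scale and then quantile-normalized. The filter on detection left out 9952 probes. Symbols came from the platform annotation, updated through RefSeq gene IDs (21834 probes with 1 symbol, 2692 without).

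Limma 3.58.1 in R 4.3.3, tested on simulated data, fitted the 4 groups together (4 residual and 5.15 prior degrees of freedom), with Benjamini-Hochberg adjustment over all 14574 probes at 0.05. Having 2 arrays in each group limits the precision. Members and gene lists were chosen with earlier results of these data known. Named genes were members called with groups apart, the 3 smallest p-values where none was called, other probes of those genes, S18 homologues and MRPS30; further members and the wider apparatus were named after their values were seen. The targeted gene is not analysed here.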

Additional observations from a re-analysis of the deposited data

How the results depend on the processing

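In p53-/- cells the 11 member calls for P2, all higher, became 16 higher and 2 lower with no background correction or with the authors' log2 values (18 in all, against 12.9% and 14.8% of all probes), 6 with median scaling, 17 higher and 3 lower with robust moderation and a trend in the variance (20, against 1740 probes higher and 2179 lower in all), and 5 when only the groups compared were fitted (against 7.93% higher). Leaving out 1 array gave 3 to 13 calls; without P2 replicate 1 there were 3, against 4.85% of all probes higher, and without P2 replicate 2 there were 7, against 7.42%. In p53+/+ cells the 4 calls became 1 with median scaling, 7 with detection p under 0.01 on all 8 arrays (against 8.85% higher and 9.96% lower), and 8 with the variance trend (6.91% and 7.68%) or only the groups compared (7.59% and 7.77%); leaving out 1 array gave 0 to 6. For the difference in response the 0 became 1 with median scaling (against 2.89% higher) and 0 to 7 without 1 array, the 7 without untreated p53-/- replicate 2 (4.62% higher). For untreated p53-/- minus p53+/+ the 0 became 3 with no background correction or the authors' values (against 1.70% lower), 5 with median scaling (3.6%), 2 with the stricter detection filter (1.28%), 1 with the variance trend (1.15%) and 0 to 10 without 1 array, the 10 without untreated p53-/- replicate 2 (6.49%). In treated cells the count was 0 under every alternative run. The causes were not tested.

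Of the 10 subunit medians, 9 changed sign under at least 1 alternative, all but that of the large subunit for P2 in p53-/- cells (0.088 to 0.16 without 1 array). Without 1 array the large subunit median ranged from -0.023 to 0.17 log2 for P2 in p53+/+ cells, -0.023 to 0.13 for the difference in response and -0.17 to 0.0086 between untreated genotypes, and the small subunit median from -0.022 to 0.049, -0.035 to 0.045 and -0.11 to 0.00050. Of the named probes 2 changed sign, the third MRPL43 probe, at -0.14 to 0.17 log2 without 1 array (negative without untreated p53-/- replicate 2), and the second MRPL47 probe in p53+/+ cells, at -0.021 to 0.39 (negative without untreated p53+/+ replicate 1); neither was called.

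Same-numbered arrays deviated together with r of -0.19 to 0.20 over the 6 pairs of groups, so the numbers were not taken as pairs. With the replicate number as a block, 12 members were called for P2 in p53-/- cells, 9 of them shared with the 11. Of these 11 were higher and 1 lower, against 11.3% and 12.9% of all probes. In p53+/+ cells 2 were higher and 1 lower, against 4.92% and 5.36%. The other comparisons gave 0 members and 0% of all probes. Crossing the numbers of the untreated p53-/- arrays in that block was an alternative chosen after seeing the data. It gave 16 members higher and 2 lower for P2 in p53-/- cells, against 13.6% and 14.9% of all probes. In p53+/+ cells it gave 3 higher and 1 lower, against 6.67% and 7.33%. For the untreated genotypes it gave 7, all lower, against 1.22% higher and 4.21% lower. The difference in response gave 0 members, against 1.51% higher and 0.521% lower, and treated cells gave 0 members and 0% of all probes.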
